A study of Homo sapiens with 5 samples.

Results

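The splicing gene families described here were 91 of the 26485 genes in the count files of 5 libraries. The cells were SW480, a cell line from a human colorectal cancer. The genes were chosen by symbol alone: 13 genes named SNRP, 13 LSM, 9 SF3A or SF3B, 13 PRPF, 12 SRSF and 31 HNRNP. These are called the Sm, LSm, SF3, PRPF, SR and hnRNP families below. Cells of both groups carried dCas9-KRAB, in which Cas9 without nuclease activity is joined to a repressor domain that lowers transcription at the site a guide RNA targets. The 2 control libraries came from cells with control guides and the 3 knockdown libraries from cells with a guide against AKAP12, a scaffold gene for protein kinases A and C. RNA was taken 48 hours after seeding and read from the 3' end of polyadenylated transcripts. The sample titles name the groups shControl and shAKAP12, whereas the treatment protocol names sgControls and sgAKAP12, so the labels name different silencing methods. The labels do not say how many guides or clones were used, or whether replicates came from separate cultures. The p-values therefore rest on library to library spread that may be purely technical.

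Splicing removes introns from pre-mRNA in the spliceosome, which is built from small nuclear ribonucleoproteins (snRNPs). Each snRNP holds a small nuclear RNA wrapped by a ring of Sm proteins, or of LSm proteins for U6. SF3A and SF3B subunits let the U2 snRNP hold the branch point, and PRPF proteins join U4, U5 and U6 into the tri-snRNP and drive its remodelling. SR proteins mostly promote, and hnRNP proteins often oppose, the use of an exon. Levels of SR and hnRNP proteins are known to be tuned in cancer cells, colorectal cancer among them.

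Of the 91 members, 82 had enough reads to be tested. Testing used the quasi-likelihood test of edgeR over all 14536 genes that passed a filter on low counts, with p-values adjusted over all of them and a threshold of 0.05. Fold changes are knockdown over control, and levels are counts per 1000000 (CPM) with TMM scaling. Where 2 levels are set beside 3, the controls come first and the knockdown libraries after them. Of the tested members, 18 rose and 15 fell in the knockdown, or 40.2% called, against a background of 22.6% of all tested genes (11.2% higher and 11.4% lower). The Sm and LSm families had 4 members higher and 1 lower each, the PRPF family 1 higher and 4 lower. SF3, SR and hnRNP genes split both ways, with 2 higher and 3 lower, 3 higher and 2 lower, and 4 higher and 4 lower. With library size as the only scaling, 20 members were higher and 8 lower, beside 11.5% higher and 6.76% lower of all tested genes, and the median log2 fold change of all tested genes moved from 0.036 to 0.23. The background share also depended on the fit. Among genes with at least 5 CPM in 2 libraries, 33 of 80 members were called, beside 3363 of all 11608 genes. By DESeq2 it was 38 of 82 members, beside 4459 of all 14536 genes. With no filter on low counts it was 32 of 87 members, beside 3540 of all 20897 genes. Members were not matched to other genes by level, and the difference in shares was not tested. All 33 called members kept their direction in every fit tried. The groups did not overlap in any called gene, so a kept direction was nearly fixed by the call and adds little to it. No call held when any 1 of the knockdown libraries was left out, a setting where no gene at all was called by edgeR. Without knockdown 1, 36 members had an unadjusted edgeR p under 0.05, beside 4015 of all 14215 genes tested in that fit. Without knockdown 2 or knockdown 3, 35 members did, beside 4109 of 14275 and 3774 of 14324 genes.

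**Figure D1:**
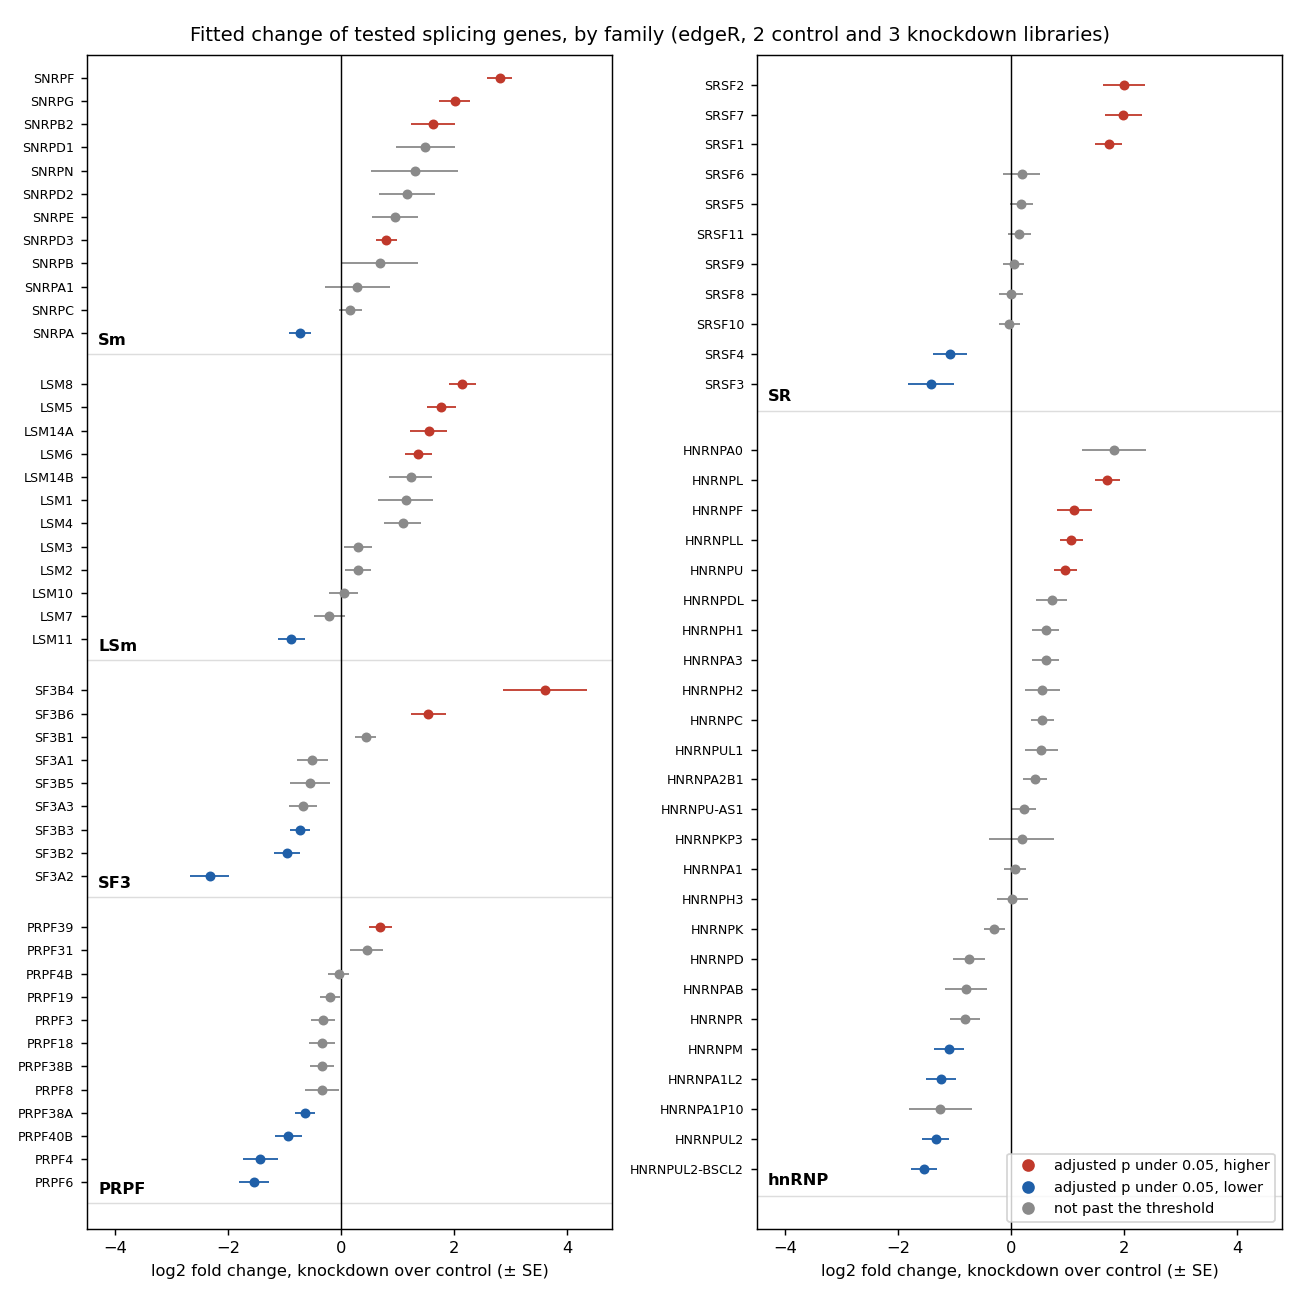
Fitted log2 fold change (knockdown over control) with its standard error for 81 of the 82 tested members, grouped by family and ordered by size. Red points rose and blue points fell at an edgeR adjusted p under 0.05, and grey points did not pass. Sm and LSm genes lie mostly right of 0 and PRPF genes mostly left of it.

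To show the members that led each family, the genomic sequence upstream of the member with the smallest p in each family is printed, from RefSeq on GRCh38.p14. SNRPF, LSM8, SRSF1 and HNRNPL were higher in the knockdown, and SF3A2 and PRPF6 were lower. Each run goes 5′ to 3′ on the gene's strand and ends before both the RefSeq start and the start in the count files. Capitals mark 6 motifs searched on both strands: the CCAAT box (CCAAT), the GC box (GGGCGG), an ETS site (CCGGAAG), a YY1 core (AAGATGG), an NRF1 motif (GCGCATG) and the E-box (CACGTG).
SNRPF (chr12:95858702-95858930, plus strand): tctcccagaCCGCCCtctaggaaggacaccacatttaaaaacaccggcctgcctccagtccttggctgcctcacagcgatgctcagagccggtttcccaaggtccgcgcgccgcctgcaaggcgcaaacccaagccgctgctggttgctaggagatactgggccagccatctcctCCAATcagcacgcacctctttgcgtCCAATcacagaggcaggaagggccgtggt
LSM8 (chr7:118183914-118184031, plus strand): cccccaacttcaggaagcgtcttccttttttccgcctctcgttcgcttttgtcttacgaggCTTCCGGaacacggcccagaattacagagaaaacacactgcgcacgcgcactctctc
SF3A2 (chr19:2236574-2236816, plus strand): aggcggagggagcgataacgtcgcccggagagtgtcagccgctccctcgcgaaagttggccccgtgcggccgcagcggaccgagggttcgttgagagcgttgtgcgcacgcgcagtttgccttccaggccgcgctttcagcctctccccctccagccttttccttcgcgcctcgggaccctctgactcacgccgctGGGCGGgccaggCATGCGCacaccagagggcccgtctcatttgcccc
PRPF6 (chr20:63980882-63981077, plus strand): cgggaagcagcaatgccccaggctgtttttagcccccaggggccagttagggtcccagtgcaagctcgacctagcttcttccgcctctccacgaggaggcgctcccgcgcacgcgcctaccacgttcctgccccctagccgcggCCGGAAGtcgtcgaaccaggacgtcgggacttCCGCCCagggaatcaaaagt
SRSF1 (chr17:58007347-58007496, minus strand): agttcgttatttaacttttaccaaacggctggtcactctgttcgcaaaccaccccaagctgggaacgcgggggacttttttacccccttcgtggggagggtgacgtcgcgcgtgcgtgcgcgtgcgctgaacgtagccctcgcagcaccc
HNRNPL (chr19:38852348-38852597, minus strand): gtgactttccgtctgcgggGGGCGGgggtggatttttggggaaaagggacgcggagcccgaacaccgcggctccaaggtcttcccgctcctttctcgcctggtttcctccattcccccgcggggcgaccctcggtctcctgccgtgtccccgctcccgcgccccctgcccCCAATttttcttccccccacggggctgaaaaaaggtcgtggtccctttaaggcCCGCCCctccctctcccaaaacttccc

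The SNRPF window held 2 CCAAT boxes and 1 GC box, whereas the SRSF1 window held none of the 6 motifs. LSM8 and PRPF6 each had an ETS site, and PRPF6 also had a GC box. SF3A2 had a GC box and an NRF1 motif, and HNRNPL had 2 GC boxes and 1 CCAAT box. A RefSeq promoter was found for 68 of the 82 tested members, and 64 of these starts lay within 500 bases of the start in the count files. Over the 250 bases before the start, a CCAAT box was present in 47.1% of these members and in 33.0% of all 27305 promoters, and a GC box in 60.3% against 42.3%. The ETS site was present in 30.9% of members and 8.82% of all promoters. Among promoters of tested genes the shares were 34.9%, 65.7% and 15.2%, and no test was made of these shares. Of 14 higher members with a promoter, 7 held the ETS site, and of 14 lower members 4 did. The YY1 core was in 2.94% of members and 3.77% of all promoters, the NRF1 motif in 7.35% and 3.96%, and the E-box in 10.3% and 6.49%. For these 3 motifs the shares among promoters of tested genes were 3.41%, 6.33% and 8.74%. A match is a description of the letters and not a bound site.

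The controls were unlike each other, as the values below show. Total counts were 4935096 and 8670141 in the controls and 6890868 to 9311026 in the knockdown. A count of 0 thus allows up to 0.608 CPM in control 1 and 0.322 to 0.435 CPM elsewhere. These limits are before TMM scaling and cover counting error only. With its TMM factor of 0.829, the limit of control 1 is higher on the scale of the levels given here. AKAP12 itself was at 2870.2 and 1549.8 CPM in the controls and 1159, 1063 and 1008 CPM in the knockdown, and missed the threshold by a little (edgeR adjusted p = 0.0513, log2 fold change -1.04, -0.52 without control 1, -1.42 without control 2). Of 8 colorectal epithelial markers, 7 had reads in every library, with a summed level of 1030.0 and 1539 CPM in the controls and 1353 to 1607 CPM in the knockdown. KRT18 was the highest of them in every library, at 427 and 984 CPM in the controls and 730 to 879 CPM in the knockdown. CDH1 was at 7.59 and 2.29 CPM against 1.23 to 3.75 CPM, and VIL1 at 3.43 and 1.72 CPM against 0.717 to 2.14 CPM. KRT20 had no read in 4 of the 5 libraries. Markers of other cell types also had reads: 6 of 6 fibroblast markers in every library (327.8 and 423.3 CPM against 411.8 to 485.5 CPM), 6 of 6 blood markers (61.7 and 98.9 CPM against 75.2 to 89.1 CPM) and 2 of 3 endothelial markers (47.3 and 70.3 CPM against 45.0 to 55.6 CPM). The part of these cells or RNAs in the results below was not tested.

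Among the members, 24 of 82 (29.3%) differed over 2-fold between the controls (levels plus 0.5 CPM), 16 of them higher in control 2, and 29.2% of all tested genes did. None of the members spread over 2-fold within the knockdown group, beside 962 of all 14536 tested genes. The median log2 range within that group was 0.19 in members and 0.33 in all tested genes. In the Sm family 7 of 12 differed over 2-fold between the controls, more than in any other family (33.3% in LSm and SF3, 7.69% in PRPF, 36.4% in SR and 20.0% in hnRNP).

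Genes of the Sm ring were higher in the knockdown as far as they passed. Of the 7 ring genes SNRPB, SNRPD1, SNRPD2, SNRPD3, SNRPE, SNRPF and SNRPG, 3 rose, none fell, and the fitted change was above 0 in all of them with both controls, but below 0 for SNRPB without control 1. SNRPF (chromosome 12, 95858931 to 95866461, on hg38 as are all positions in the count files) encodes Sm protein F. It was at 21.6 and 21.0 CPM in the controls and 129.7, 147 and 169 CPM in the knockdown. Both controls were close to each other and every knockdown library was above both. The rise was 6.98-fold (log2 fold change 2.80, SE 0.23, edgeR adjusted p = 0.0124), nearly the same without control 1 (2.82) or control 2 (2.78).

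SNRPG (chromosome 2, 70281374 to 70293737), which encodes the smallest Sm protein, was at 58.3 and 87.2 CPM in the controls and 242, 337 and 301 CPM in the knockdown. It rose 4.02-fold (log2 fold change 2.01, SE 0.28, edgeR adjusted p = 0.0140). SNRPD3 (chromosome 22, 24555650 to 24574964) showed a 1.74-fold rise, from 81.3 and 92.6 CPM to 153, 148 and 153 CPM (edgeR adjusted p = 0.0297). In SNRPF, SNRPG and SNRPD3 the groups did not overlap. SNRPD3 shares exon sequence with GUCD1 on the opposite strand, between positions 24555650 and 24555935. The counts were made with no strand option, so reads within this stretch cannot be told apart. It lies at the start of both genes, whereas the libraries were read from the 3' end. GUCD1 was at 15.9 and 38.3 CPM against 80.2, 78.9 and 77.6 CPM and was itself called higher (edgeR adjusted p = 0.0320).

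The other 4 ring genes did not pass. Their controls lay far apart, with control 1 low. SNRPD1 was at 81.8 and 303 CPM in the controls and 603, 523 and 499 CPM in the knockdown (log2 fold change 1.49, SE 0.52, edgeR adjusted p = 0.0774). SNRPD2 was at 109 and 397 CPM in the controls and 577, 565 and 562 CPM in the knockdown (edgeR adjusted p = 0.129), and SNRPE was at 33.1 and 93.2 CPM in the controls and 125, 116 and 128 CPM in the knockdown (edgeR adjusted p = 0.129). In these 3 genes the knockdown libraries were above both controls. Without control 1 the changes of SNRPD1, SNRPD2 and SNRPE were 0.84, 0.52 and 0.41. Leaving out control 2 instead gave 2.72, 2.38 and 1.89. SNRPB, which encodes the Sm proteins B and B', was at 77.2 and 532 CPM in the controls and 520.5, 475 and 481 CPM in the knockdown, so control 2 lay above all knockdown libraries. Its log2 fold change of 0.69 (edgeR adjusted p = 0.478) turned to -0.11 without control 1 and was 2.67 without control 2. SNRPD1 passed by DESeq2, by limma-voom and without a filter (adjusted p = 0.0144, 0.0451 and, by edgeR, 0.0381).

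SNRPN, the imprinted paralog of SNRPB, shares its transcript with SNURF, and both genes had the same level in every library. It was at 0.245 and 6.08 CPM in the controls and 8.40, 8.04 and 9.84 CPM in the knockdown, with 1 read in control 1, and did not pass (edgeR adjusted p = 0.245). The ratio of knockdown to control 1 was 35.7 with an exact 95% counting interval of 6.35 to 1418, and to control 2 it was 1.44 (1.06 to 1.98). The controls were farther from each other than control 2 was from the knockdown libraries.

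Of 4 U1 and U2 snRNP genes in the same family, 1 rose and 1 fell. SNRPB2 (chromosome 20, 16729964 to 16741772), the U2 B'' protein, was at 93.6 and 237 CPM in the controls and 533, 501 and 498 CPM in the knockdown. It rose 3.09-fold (log2 fold change 1.63, SE 0.39, edgeR adjusted p = 0.0326), with a log2 fold change of 1.11 without control 1 and 2.44 without control 2. SNRPA (chromosome 19, 40750854 to 40765392), the U1 A protein that binds a loop of U1 RNA, was at 121 and 125 CPM in the controls and 82.9, 73.0 and 66.5 CPM in the knockdown. It fell 1.66-fold (log2 fold change -0.73, SE 0.19, edgeR adjusted p = 0.0383), and in edgeR it missed the threshold with library size only (0.113), with no filter on low counts (0.0604) and with GC offsets (0.0680). SNRPC, the U1 C protein, was at 223 and 276 CPM against 291, 277 and 272 CPM, and SNRPA1, the U2 A' protein, at 53.9 and 12.0 CPM against 29.9, 42.9 and 46.1 CPM. In both genes the groups overlapped, and SNRPA1 had its highest level in control 1 and its lowest in control 2.

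In the LSm family the genes of the U6 ring rose where they passed. Of LSM1 to LSM8, 3 rose, none fell, and the median log2 fold change was 1.115. LSM8 (chromosome 7, 118184032 to 118204039) is the subunit that makes the nuclear ring specific to U6 RNA. It was at 9.80 and 13.2 CPM in the controls and 51.9, 51.2 and 50.9 CPM in the knockdown, a 4.42-fold rise (log2 fold change 2.14, SE 0.24, edgeR adjusted p = 0.0131). The 3 knockdown libraries were within 2 CPM of each other and all above both controls.

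LSM5 (chromosome 7, 32485333 to 32495258), a shared subunit of the nuclear and cytoplasmic rings, was at 54.4 and 75.6 CPM in the controls and 205, 198 and 264 CPM in the knockdown (log2 fold change 1.77, SE 0.26, edgeR adjusted p = 0.0148). LSM6 (chromosome 4, 146175683 to 146190061), another shared subunit, was at 11.8 and 9.52 CPM in the controls and 25.4, 26.4 and 29.9 CPM in the knockdown (log2 fold change 1.36, SE 0.24, edgeR adjusted p = 0.0188). Both had all knockdown libraries above both controls. LSM4 was close to the threshold at 40.7 and 85.4 CPM against 138, 135 and 131 CPM (edgeR adjusted p = 0.0524), and it passed in 6 of 9 other fits, with adjusted p from 0.0133 to 0.0702 over the 9. LSM1, which takes the place of LSM8 in the cytoplasmic ring that promotes mRNA decay, was at 11.5 and 42.9 CPM against 64.4, 57.5 and 61.7 CPM (edgeR adjusted p = 0.129). LSM1 and LSM8 were not compared by a test. LSM2 was at 30.4 and 43.2 CPM against 42.3, 43.3 and 50.8 CPM, LSM3 at 135 and 213 CPM against 229, 201 and 213 CPM and LSM7 at 300.1 and 164 CPM against 203, 209 and 190.2 CPM, and the groups overlapped in these 3 genes (edgeR adjusted p from 0.380 to 0.604).

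The LSM genes outside the rings went in both directions. LSM14A (chromosome 19, 34172447 to 34229515), a protein of cytoplasmic processing bodies, showed a rise of 2.93-fold, from 28.7 and 58.0 CPM to 119.9, 121 and 142 CPM (log2 fold change 1.55, SE 0.33, edgeR adjusted p = 0.0243). Leaving out control 2 gave 2.15. Its paralog LSM14B was at 11.3 and 27.3 CPM against 38.9, 49.0 and 50.5 CPM (edgeR adjusted p = 0.0579). LSM11 (chromosome 5, 157743695 to 157760709), a subunit of the U7 snRNP that processes histone mRNA, was the LSm member that fell, from 25.2 and 18.9 CPM to 11.6, 12.1 and 12.2 CPM (edgeR adjusted p = 0.0419). Its call was lost by limma-voom (adjusted p = 0.0503), with library size only (0.0789 by edgeR) and when low counts were not filtered (0.0543 by edgeR). LSM10, the partner of LSM11 in U7, was at 33.3 and 55.5 CPM against 47.0, 47.7 and 43.6 CPM with overlapping groups.

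**Figure D2:**
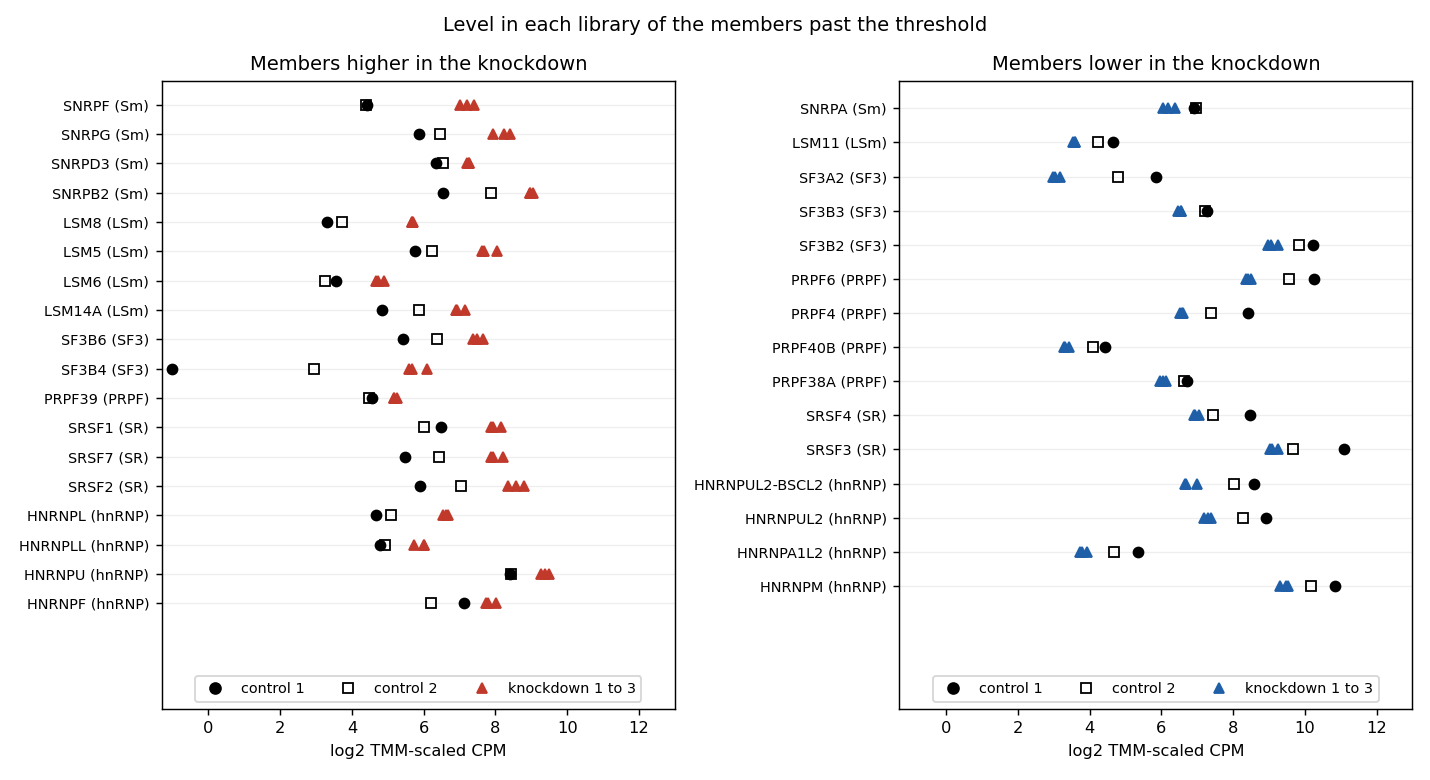
Level in each library (log2 TMM-scaled CPM) of the 18 members that rose (left) and the 15 that fell (right), with family in brackets; circles are control 1, squares control 2 and triangles the 3 knockdown libraries. In every row the triangles lie to one side of both controls, as the knockdown libraries do in every called gene of the whole set. The controls are far apart for SF3B4 and SRSF3.

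The U2 branch point complexes split by subunit. Of 9 SF3 genes, 2 rose and 3 fell, and the median log2 fold change was -0.55. The SF3A trimer holds U2 together with SF3B, and all 3 of its genes were fitted below 0, although SF3A1 was at 0.017 without control 1. SF3A2 (chromosome 19, 2236817 to 2248679) was at 57.3 and 27.6 CPM in the controls and 8.19, 9.11 and 7.87 CPM in the knockdown. It fell 5.02-fold (log2 fold change -2.33, SE 0.34, edgeR adjusted p = 0.0148), and the change was -1.72 without control 1 and -2.78 without control 2. SF3A3 (328 and 205 CPM against 164, 161 and 176 CPM) and SF3A1 (231 and 123 CPM against 129, 125 and 119.5 CPM) did not pass (edgeR adjusted p = 0.0854 and 0.221).

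SF3B6 (chromosome 2, 24067584 to 24076444), a small subunit that sits at the branch point adenosine, was at 42.6 and 82.1 CPM in the controls and 180.4, 166 and 201 CPM in the knockdown. It rose 2.91-fold (log2 fold change 1.54, SE 0.31, edgeR adjusted p = 0.0229). SF3B4 (chromosome 1, 149923317 to 149928252), which binds RNA upstream of the branch point, was at 0.490 and 7.68 CPM in the controls and 47.8, 50.9 and 68.1 CPM in the knockdown (log2 fold change 3.60, SE 0.75, edgeR adjusted p = 0.0239). It had 2 reads in control 1 and 67 in control 2, so its size depends on the control: the ratio was 113 to control 1 (exact 95% counting interval 31.2 to 932.2) and 7.19 to control 2 (5.62 to 9.33). Without control 1 its log2 fold change was 2.85, and without control 2 it was 6.77.

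Among the larger SF3B subunits, SF3B2 and SF3B3 fell, whereas SF3B1 was fitted above 0 without passing. SF3B2 (chromosome 11, 66052345 to 66068911) fell from 1208 and 907 CPM to 611, 529 and 499 CPM (log2 fold change -0.95, SE 0.23, edgeR adjusted p = 0.0327). SF3B3 (chromosome 16, 70523788 to 70577668) fell from 156 and 150.1 CPM to 94.1, 94.2 and 88.9 CPM (log2 fold change -0.73, SE 0.18, edgeR adjusted p = 0.0322). The SF3B3 call was lost with library size only (0.0871 by edgeR) and when low counts were not filtered (0.0538 by edgeR). SF3B1, the branch point binding subunit that is recurrently mutated in some cancers, was at 233 and 222 CPM in the controls and 314, 289 and 320.4 CPM in the knockdown. All its knockdown libraries were above both controls, but it did not pass (log2 fold change 0.44, SE 0.19, edgeR adjusted p = 0.130). SF3B5 was at 263 and 595 CPM against 322, 301 and 255 CPM, with control 1 within the knockdown range and control 2 above it.

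PRPF genes were lower where they passed, with 1 exception. Of 13 members, 4 fell and 1 rose, and 10 were fitted below 0. PRPF6 (chromosome 20, 63981078 to 64033100), which bridges U5 and U4/U6 in the tri-snRNP, was at 1230.2 and 761 CPM in the controls and 361, 339 and 326 CPM in the knockdown. It fell 2.91-fold (log2 fold change -1.54, SE 0.26, edgeR adjusted p = 0.0175). PRPF4 (chromosome 9, 113275634 to 113292905), a U4/U6 protein, was at 344 and 168 CPM in the controls and 97.7, 96.2 and 91.3 CPM in the knockdown. It fell 2.69-fold (log2 fold change -1.43, SE 0.30, edgeR adjusted p = 0.0251), and the change was -0.82 without control 1. Both genes were lower in all knockdown libraries than in either control.

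PRPF38A (chromosome 1, 52404547 to 52418320), needed to activate the spliceosome, fell from 106 and 100.01 CPM to 70.0, 62.4 and 65.5 CPM (edgeR adjusted p = 0.0457). PRPF40B (chromosome 12, 49623414 to 49644669), a U1-associated protein, fell from 21.6 and 17.2 CPM to 9.73, 9.91 and 10.7 CPM (edgeR adjusted p = 0.0372). PRPF38A lost its call with library size only (0.130 by edgeR) and when low counts were not filtered (0.0928), and PRPF40B with library size only (0.0702) and with GC offsets (0.0738). PRPF40B overlaps FMNL3 on the opposite strand, whose level was 60.3 and 54.4 CPM against 30.0, 28.4 and 34.3 CPM and which was also called lower (edgeR adjusted p = 0.0277). The spans of the genes overlap between positions 49637941 and 49644669, at the 3' end of both, where the libraries were read. Reads on shared exon sequence cannot be told apart, and their part in the PRPF40B call was not tested. PRPF39 (chromosome 14, 45084099 to 45115601), another U1-associated protein, was the member that rose, from 23.5 and 22.2 CPM to 36.3, 36.3 and 38.2 CPM (edgeR adjusted p = 0.0489). Its exons overlap FKBP3 on the opposite strand, which was at 134 and 159.9 CPM against 288, 265 and 308 CPM and was called higher (edgeR adjusted p = 0.0244). This overlap runs only from position 45115599 to 45115601, but it lies at the 3' end of both genes. The part of shared reads was not tested. The PRPF39 call was lost in 5 of 9 other fits, with adjusted p from 0.0336 to 0.257 over the 9.

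The other PRPF genes, some of them of the tri-snRNP and of the catalytic steps, did not pass. PRPF8, the U5 protein at the catalytic centre, was at 175 and 90.1 CPM in the controls and 115, 97.0 and 102 CPM in the knockdown (log2 fold change -0.34, SE 0.30, edgeR adjusted p = 0.424). Its groups overlapped, and the sign turned without control 1 (0.22). PRPF19, the ubiquitin ligase of the NTC complex, was at 136 and 132 CPM in the controls and 116, 125 and 112 CPM in the knockdown (log2 fold change -0.19, SE 0.18, edgeR adjusted p = 0.453). PRPF3 (53.6 and 73.2 CPM against 49.3, 49.96 and 52.7 CPM), PRPF31 (29.1 and 54.1 CPM against 58.2, 53.2 and 60.6 CPM) and PRPF18 (42.6 and 60.2 CPM against 43.5, 42.2 and 36.9 CPM) also did not pass (edgeR adjusted p from 0.281 to 0.307). PRPF4B, a kinase, was at 304 and 267 CPM against 279, 256 and 295 CPM, and its groups overlapped. PRPF38B, the paralog of the called PRPF38A, had a fitted change of -0.34 on the log2 scale (edgeR adjusted p = 0.276).

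**Figure D3:**
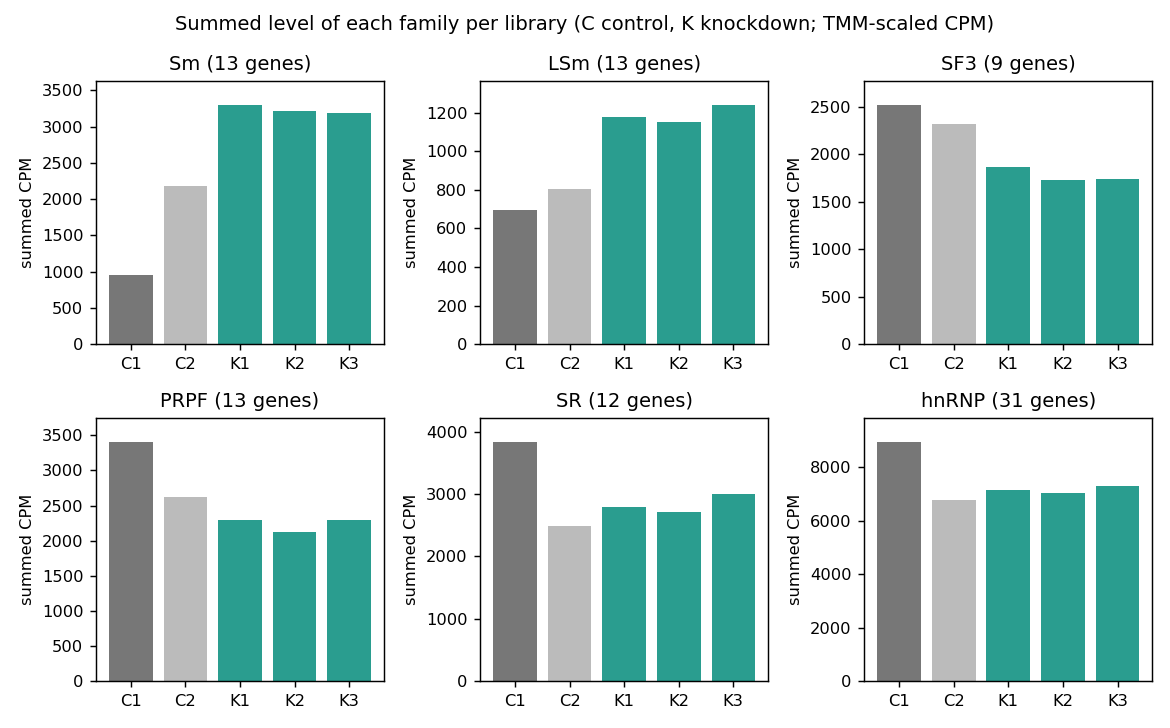
Summed TMM-scaled CPM of each family in each library, bars from 0; C1 and C2 are the controls and K1 to K3 the knockdown libraries. The Sm and LSm sums are highest in the knockdown libraries and the SF3 and PRPF sums lowest there, while the SR and hnRNP sums of the knockdown lie between the controls.

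Summed over members, the Sm family was at 954.1 and 2182 CPM in the controls and 3186 to 3297 CPM in the knockdown, and the LSm family at 694.0 and 807.0 CPM against 1151 to 1240.0 CPM. The SF3 sum was 2519 and 2320.0 CPM against 1725 to 1870.0 CPM, and the PRPF sum 3411 and 2621 CPM against 2118 to 2294 CPM. For these 4 families the groups did not overlap. The SR sum was 3843 and 2487 CPM against 2721 to 3004 CPM, and the hnRNP sum 8965 and 6793 CPM against 7038 to 7292 CPM, so both overlapped. Before TMM scaling the 91 genes held 1.69% and 1.73% of all reads counted in the controls, and between 1.95% and 1.97% in the knockdown. After it their sum was 20390.0 and 17210.0 CPM against 17970.0 to 18750.0 CPM, with overlapping groups, so the order of the groups for the whole set depends on the scaling. No test was made of the sums, since 2 libraries against 3 cannot give an exact permutation p below 0.1, and differences between families were not tested.

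Among SR proteins, 3 of the classical members rose and 2 fell. SRSF1 (chromosome 17, 58000919 to 58007346), which promotes exon inclusion and is known as an oncogene when raised, was at 88.7 and 64.5 CPM in the controls and 242, 235 and 282 CPM in the knockdown. It rose 3.31-fold (log2 fold change 1.73, SE 0.24, edgeR adjusted p = 0.0140). SRSF7 (chromosome 2, 38743599 to 38751494), a zinc knuckle SR protein, was at 44.8 and 85.3 CPM in the controls and 237, 244 and 297 CPM in the knockdown, a rise of 3.96-fold (log2 fold change 1.99, SE 0.32, edgeR adjusted p = 0.0169). SRSF2 (chromosome 17, 76734115 to 76737411) was at 59.5 and 132 CPM in the controls and 324, 379 and 448 CPM in the knockdown, a rise of 3.99-fold (log2 fold change 2.00, SE 0.38, edgeR adjusted p = 0.0209; log2 fold change 2.68 without control 2). In these 3 genes every knockdown library was above both controls. SRSF2 shares exons with MFSD11 on the opposite strand and with MIR636. MFSD11 was at 3.67 and 15.7 CPM against 20.8, 23.3 and 24.0 CPM, with an edgeR adjusted p of 0.140.

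SRSF3 (chromosome 6, 36594313 to 36604467), the closest relative of SRSF7 and a regulator of mRNA export and 3' end choice, went the other way. It was at 2189 and 812 CPM in the controls and 612, 548 and 526 CPM in the knockdown. Control 1 was far above all other libraries, and control 2 was above the knockdown by a smaller margin. It fell 2.67-fold (log2 fold change -1.42, SE 0.40, edgeR adjusted p = 0.0461), and the change was -0.53 without control 1. SRSF4 (chromosome 1, 29147738 to 29182125) fell from 356 and 175 CPM to 134, 122 and 121 CPM (log2 fold change -1.08, SE 0.30, edgeR adjusted p = 0.0460), and the change was -0.48 without control 1. Both calls were lost by limma-voom (adjusted p = 0.0554 and 0.0545) and with library size only (edgeR adjusted p = 0.0633 and 0.0656).

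The other 6 tested SR genes had overlapping groups. SRSF5 was at 127 and 164 CPM against 161, 174 and 159 CPM, SRSF6 at 87.9 and 191 CPM against 170.1, 150.3 and 159 CPM and SRSF9 at 83.0 and 77.9 CPM against 85.1, 78.2 and 85.6 CPM. SRSF8, SRSF10 and SRSF11 had log2 fold changes of 0.00092, -0.029 and 0.14. EdgeR adjusted p values of the 6 ran from 0.530 to 0.998. SRSF12 was too low to test, with 0 to 4 reads a library.

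In the hnRNP family, 4 of 25 tested members rose and 4 fell, and these 8 include 1 shared measurement. HNRNPL (chromosome 19, 38836388 to 38852339), which binds CA-rich RNA, was at 25.5 and 33.9 CPM in the controls and 92.3, 102 and 98.0 CPM in the knockdown. It rose 3.26-fold (log2 fold change 1.71, SE 0.22, edgeR adjusted p = 0.0131). Its paralog HNRNPLL (chromosome 2, 38563186 to 38603036) showed a 2.10-fold rise, from 27.7 and 30.0 CPM to 64.4, 52.9 and 64.4 CPM (edgeR adjusted p = 0.0221). Both paralogs had all knockdown libraries above both controls.

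HNRNPU (chromosome 1, 244850300 to 244864525), a scaffold of nuclear RNA and chromatin, was at 339 and 349 CPM in the controls and 619, 670.5 and 716 CPM in the knockdown. It rose 1.95-fold (log2 fold change 0.96, SE 0.21, edgeR adjusted p = 0.0252), and with GC offsets the edgeR adjusted p was 0.0649. The neighbouring gene HNRNPU-AS1, which in these files lies on the same strand as HNRNPU without overlapping it, was at 179 and 251 CPM against 259, 240.1 and 259 CPM with overlapping groups. Its exons overlap COX20 on the opposite strand. HNRNPF (chromosome 10, 43385617 to 43409248), which binds G-rich RNA, rose from 139.9 and 73.6 CPM to 212, 220.5 and 259 CPM (log2 fold change 1.115, edgeR adjusted p = 0.0435). The change was 0.72 without control 2, and the call was lost in 3 of 9 other fits, with adjusted p from 0.0185 to 0.0692 over the 9.

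HNRNPM (chromosome 19, 8444828 to 8489118), a regulator of splicing in epithelial to mesenchymal transition, was at 1844 and 1152 CPM in the controls and 747, 716 and 636 CPM in the knockdown. It fell 2.14-fold (log2 fold change -1.10, SE 0.27, edgeR adjusted p = 0.0326), and the change was -0.72 without control 1. HNRNPUL2 (chromosome 11, 62712625 to 62727385) fell from 481 and 312 CPM to 167, 159 and 145 CPM (log2 fold change -1.34, SE 0.24, edgeR adjusted p = 0.0193). The read-through gene HNRNPUL2-BSCL2 was lower too, at -1.54 on the log2 scale (edgeR adjusted p = 0.0159) on exons shared with HNRNPUL2 and BSCL2, so it is no separate measurement. BSCL2 itself was at 206 and 164 CPM against 78.4, 58.7 and 67.7 CPM.

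HNRNPA1L2 (chromosome 13, 52617470 to 52643784), a retrocopy of HNRNPA1, fell from 41.2 and 25.8 CPM to 15.2, 13.3 and 13.8 CPM (edgeR adjusted p = 0.0252), while HNRNPA1 itself did not pass. HNRNPA1, one of the best known exon silencers, was at 203 and 207 CPM in the controls and 199.6, 205 and 239.7 CPM in the knockdown (log2 fold change 0.067, SE 0.19, edgeR adjusted p = 0.819). HNRNPA1 has many near-identical copies in the genome, and the headers give no option to count reads that map to several places, so the split between copies is uncertain.

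The other abundant hnRNP genes did not pass. HNRNPA2B1, a partner of HNRNPA1, was at 523 and 424 CPM in the controls and 623, 632 and 657 CPM in the knockdown (log2 fold change 0.43, SE 0.21, edgeR adjusted p = 0.175). HNRNPC, which binds uridine tracts, was at 221 and 209 CPM in the controls and 287, 303 and 355 CPM in the knockdown (log2 fold change 0.55, SE 0.20, edgeR adjusted p = 0.0876). In both, all knockdown libraries were above both controls. HNRNPK, which binds cytidine-rich RNA, was at 444 and 482 CPM in the controls and 399, 382 and 352 CPM in the knockdown (log2 fold change -0.29, SE 0.19, edgeR adjusted p = 0.294), with all knockdown libraries below both controls. HNRNPA0 was at 24.5 and 108 CPM against 246, 229.6 and 231 CPM, with a log2 fold change of 1.82 and an edgeR adjusted p of 0.0575 (1.13 without control 1), and it passed in 4 of 9 other fits, with adjusted p from 0.00468 to 0.0798 over the 9.

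Of the remaining tested hnRNP members, HNRNPDL, HNRNPH1, HNRNPA3, HNRNPUL1 and HNRNPH2 had log2 fold changes from 0.53 to 0.71, with non-overlapping groups and edgeR adjusted p from 0.0985 to 0.228. Without control 1 these 5 ranged from 0.15 (HNRNPUL1) to 1.15 (HNRNPH2), and without control 2 from 0.11 (HNRNPH2) to 1.15 (HNRNPDL). HNRNPR was at 832 and 494 CPM against 397, 376 and 356 CPM, HNRNPD at 1012 and 557 CPM against 477, 451 and 482 CPM and HNRNPAB at 1196 and 496 CPM against 447, 486 and 526 CPM, each with control 1 the highest library. Their fitted changes were -0.82, -0.74 and -0.80 (edgeR adjusted p = 0.0653, 0.0997 and 0.149). Leaving out control 1 brought them to -0.39, -0.24 and -0.028. HNRNPH3 had 0.023, with the sign depending on the control left out. The pseudogenes HNRNPA1P10 and HNRNPKP3 were below 7 CPM in every library and did not pass. The 9 members that could not be tested were HNRNPCL1 to HNRNPCL4, HNRNPA1P33, HNRNPA3P1, SNRPD2P2, LSM12 and SRSF12. LSM12 had 7 and 4 reads in the controls and 1 in each knockdown library.

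**Figure D4:**
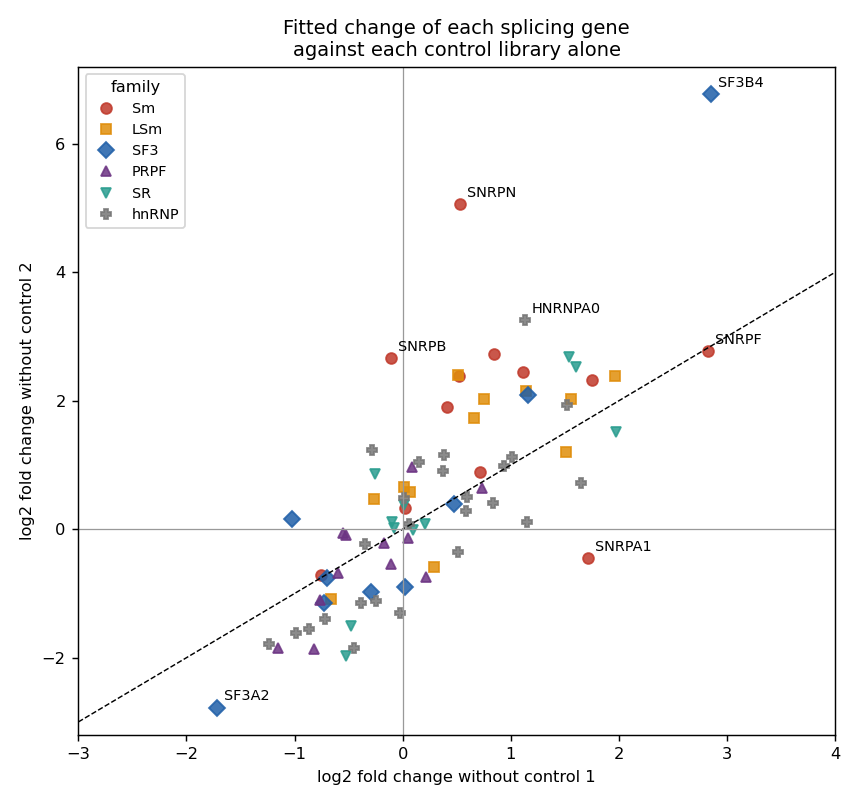
Log2 fold change of 81 tested members when control 1 (x axis) or control 2 (y axis) is left out, by family; the dashed line marks equal values. Points for SF3B4, SNRPN, SNRPB and HNRNPA0 lie far above the line, SNRPA1 lies far below it, and SNRPF lies on it; the y values of SF3B4 and SNRPN rest on 2 and 1 reads in control 1.

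The family medians moved with the control used. The Sm median log2 fold change was 1.06 with both controls, 0.62 without control 1 and 2.35 without control 2, and the LSm median was 1.115, 0.59 and 1.46. The SF3 median was -0.55, -0.30 and -0.76, and the PRPF median -0.34, -0.17 and -0.22. The SR median was 0.14, 0.011 and 0.11, and the hnRNP median 0.23, 0.15 and 0.28. The median of all tested genes was 0.036, 0.021 and 0.12. With a single control the knockdown libraries alone give the spread, and the lone control was assumed to vary like them. Those fits called 35 members higher and 20 lower without control 1, where 37.3% of all tested genes were called (20.3% higher and 17.0% lower). Without control 2 they called 41 members higher and 25 lower, where 58.1% of all tested genes were called (30.5% higher and 27.6% lower). Neither fit includes the difference between the controls.

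Groups did not overlap in 57 of the 82 tested members (69.5%), 35 with the knockdown higher and 22 with it lower, against a background of 60.1% of all tested genes (31.6% higher and 28.5% lower). Groups were also apart in all 1624 genes called higher and all 1658 called lower. For a called member, groups that do not overlap therefore add nothing to the call. In the authors' deposited table, 37 of 83 members with an adjusted p were under 0.05 (44.6%), against 25.3% of all genes with one. Of these 37, 21 were higher and 16 lower, and 32 were also among the 33 called here, with the same sign. The table comes from the same series, so the shared calls are no independent support. The table's direction is not stated and was read from its correlation with the fold changes here, r = 0.999 over 14536 genes, which are not independent. The shared sign therefore adds nothing.

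Members differed in sequence make-up as well as in family. Across the 81 tested members with a value, log2 fold change had a Spearman's rho of -0.28 with transcript GC content and -0.13 with exon length, against -0.20 and -0.090 across 13725 tested genes. These points share the same 5 libraries. The median GC content was 40.0% in the 18 members that rose and 48.9% in the 15 that fell, and 45.5% and 55.6% in all genes called higher and lower. Of 9 tested members with under 1000 bases of exon, 4 rose and none fell, against 11.5% higher and 16.4% lower among all tested genes of that length. Exon length is that of the count files, which adds up all reference sequences a gene is placed on. LSM2 (5280 bases on 6 sequences) and PRPF31 (21830 bases on 10), neither of them called, are therefore counted as longer than 1 copy is. With offsets for GC content 32 members were called (17 higher and 15 lower), and with offsets for length 33 (18 and 15), of which 28 and 31 were among the 33. Of all tested genes 20.7% were called with GC offsets and 23.7% with length offsets. The part of GC content in the results was not tested further.

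Splicing genes outside the 6 families were called at about the background rate. Of 128 tested genes in 7 lists, 16 rose and 12 fell (21.9%, against 22.6% of all tested genes), and the median log2 fold change was 0.0060. Among U1, U2, U5 and tri-snRNP proteins outside the families, 1 of 24 rose and 2 fell (12.5% called). The U2-associated gene U2SURP rose by 0.96, and PUF60, a partner of U2AF, and the tri-snRNP gene SART1 were at -1.53 and -0.91. Without control 1 SART1 was -0.60. Among NTC complex and catalytic step factors 2 of 23 rose (BCAS2 at 0.97 and CWC27 at 1.08) and 1 fell (ISY1 at -1.34, -0.81 without control 1). The share called was 13% in this list. Of 8 minor spliceosome proteins, PDCD7 rose (0.78) and none fell (12.5% called).

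The exon junction complex, which marks spliced mRNA, held the largest rises of these lists. Of 9 members, 3 rose and 1 fell (44.4% called). Its anchoring helicase EIF4A3 (chromosome 17, 80135214 to 80147183) was at 14.5 and 16.1 CPM in the controls and 115, 125 and 120.4 CPM in the knockdown, a rise of 7.85-fold (log2 fold change 2.97, SE 0.21, edgeR adjusted p = 0.0124). The groups were far apart, with both controls close together. RNPS1, an SR-like partner, was at 8.57 and 12.3 CPM in the controls and 60.1, 72.5 and 69.8 CPM in the knockdown (log2 fold change 2.67, SE 0.26, edgeR adjusted p = 0.0124). MAGOH rose by 1.34 (edgeR adjusted p = 0.0258), and ACIN1 was at -1.56 (edgeR adjusted p = 0.0175).

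The SMN complex and the methylosome load Sm proteins onto small nuclear RNA. Of their 13 genes, 3 rose and none fell: WDR77 by 0.91, STRAP by 1.55 and GEMIN6 by 1.41 (edgeR adjusted p = 0.0301, 0.0388 and 0.0403). This is 23.1% called, near the 22.6% of all tested genes. SMN1 and SMN2, neither of them called, had the same counts in every library and are 1 measurement. STRAP was 2.42 and GEMIN6 2.21 without control 2, and 1.03 and 0.94 without control 1. In the list of SR kinases and SR-related proteins 2 of 16 rose, the paralogs TRA2B (1.495) and TRA2A (1.16), and RSRC1 fell (-0.79), or 18.8% called. TRA2A was 0.77 without control 1. Of 35 other splicing regulators 4 rose and 7 fell (31.4% called), with PCBP1 at 2.61 and the polypyrimidine tract binding gene PTBP1 and the gene RBM5 at -0.95 and -1.25. RBM5 was -0.72 without control 1. PCBP1, at 28.9 and 90.8 CPM against 265, 353 and 483 CPM, was 2.01 without control 1 and 3.66 without control 2.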

How the data were processed

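Per the file headers, the authors made whole-number counts per gene with featureCounts 1.6.2 over exons, counting reads that overlap several genes for each of them and with no strand option. STAR 2.7, hg38 and DESeq2 1.22 are named in the submitters' processing notes. Read trimming and any use of molecular identifiers: not given in the sources used here. The authors' deposited comparison table holds, per its header, a log2 fold change, its standard error, a mean signal, a test statistic (a score) and p-values.

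Genes were filtered with filterByExpr (minimum count 10), scaled with TMM and tested two-sided in edgeR 4.0.16 under R 4.3.3 with no covariates, adjusting p over all 14536 genes (threshold 0.05). Standard errors are the absolute log2 fold change over the square root of F. GC content came from the longest GENCODE 29 transcript. The procedure was tested on simulated data.

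The members and lists were chosen with earlier results of these data known. Named were AKAP12, up to 5 higher and 5 lower called members per family, 17 fixed members, and up to 3 called genes per other list; other members and overlap partners were chosen with their values in view. The values of 1 member that was not called are not reported here; it stays in the counts, medians and sums. Also run were DESeq2 1.42.0, voom in limma 3.58.1, RLE scaling, library size only, no filter, at least 5 CPM in 2 libraries, the replicate number as a block and each library left out. Offsets for GC content and for length (a smooth with span 0.2), and leaving out TERT and short RNA genes, were chosen after seeing the data. The 9 other fits mentioned in the report are these without the block and left-out libraries.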

Additional observations from a re-analysis of the deposited data

How the results depend on the processing

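Of the 33 called members, 23 kept their call in all 9 fits that used every library and no block, and 10 lost it in at least 1. Library size only gave 8 members and 6 genes of the other lists lower, with medians of -0.11 (PRPF), 0.42 (hnRNP) and 0.39 (all families), log2 ratios of summed levels of -0.23 (SF3), -0.21 (PRPF), 0.082 (SR) and 0.090 (hnRNP), and PRPF19 at 0.020. The Sm median was 1.33 by limma-voom, and the hnRNP median 0.41 with at least 5 CPM in 2 libraries. GC offsets gave medians of 0.075 (hnRNP) and 0.080 (all families), and length offsets 0.091 (all families). HNRNPA1 was at -0.15 with GC offsets and -0.19 with length offsets. AKAP12 passed by DESeq2 (-1.09, adjusted p = 0.0110), limma-voom (-0.98, 0.0453), no filter (-0.996), the stricter filter (-1.06), GC offsets (-1.16) and without TERT and short RNA genes (-1.04). The cause was not tested.

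With the replicate number as a block, 4 members were called, SNRPF, SNRPG, LSM8 and SF3B4, all higher (4 higher, 0 lower), where edgeR called 210 of 14536 genes (1.44%; unadjusted p under 0.05 in 30 members and 3320 genes), beside 3 genes higher and 0 lower in the other lists. The block left 1 knockdown library without a partner. Under the block the medians were 1.37 (Sm) and 0.41 (hnRNP), and HNRNPA1 was at -0.020. Deviations of same-numbered libraries correlated at -0.053 (number 1) and -0.081 (number 2). With 2 controls, the deviations of 1 control mirror those of the other. These correlations therefore cannot show whether a shared number marks a shared day or culture. Leaving out 1 library gave 0 to 66 members called (0 to 41 higher, 0 to 25 lower; 58.1% of all genes in the fit that gave 66), 0 to 46 higher and 0 to 47 lower in the other lists, and medians of 0.62 to 2.35 (Sm), 0.59 to 1.46 (LSm) and 0.088 to 0.39 (all families). AKAP12 ran from -1.42 to -0.52, SNRPB from -0.11 (without control 1) to 2.67, PRPF8 from -0.75 to 0.22 (without control 1) and HNRNPA1 from -0.016 (without knockdown 3) to 0.12. The 0 counts are by edgeR, where 3774 to 4109 of all genes had an unadjusted p under 0.05. Depth limits the low members: control 1 held 2 reads of SF3B4 and 1 of SNRPN.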
